A study of Mus musculus with 18 samples.

Results

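Regulatory T cells (Treg) taken from B16F10 melanoma tumours were compared with conventional CD4+ T cells (Tconv) sorted from tumours of the same kind. The 6 arrays that carry these cells by their labels, 3 of tumour Treg and 3 of tumour Tconv, were set against each other within an experiment of 18 arrays. Of 46237 probes on each array, 22409 had a gene name and were detected on at least 3 arrays, at a detection p-value under 0.05. These probes stand for 14581 genes, and a gene is given by its brightest probe unless another probe is named.

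Tumour Treg were sorted as CD4+CD25+Foxp3+ cells without CD8 or CD11b, and tumour Tconv as CD4+ cells without Foxp3, CD8 or CD11b, with no gate on CD25 named. Spleen Treg and spleen Tconv of tumour-bearing mice, and CD8+ T cells from tumour, serve as further groups of 3 arrays each. Every group came from female C57BL/6 mice with the Foxp3-GFP-DTR-CD90.1 genotype, a reporter allele that marks cells transcribing Foxp3, and every mouse had received 50000 B16F10 cells under the skin. B16F10 is a transplantable pigment cell tumour line, so that a graft of 1 cell line stands for melanoma here, and organs were collected when tumours measured about 10 mm. No group came from mice without a tumour. Cells were pooled before sorting, and 2.5 ng of RNA was amplified for each array, so a level describes a pool of cells. In such pools, fewer cells that carry a transcript and less of it in each cell cannot be told apart.

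Treg are CD4+ T cells that restrain other immune cells, and the transcription factor Foxp3 maintains their identity. They act through inhibitory surface receptors such as Ctla4, through secreted mediators such as interleukin 10, and by taking up the cytokine interleukin 2. In solid tumours they are known as an activated population that carries costimulatory receptors of the TNF receptor family and chemokine receptors of inflamed tissue. Tconv comprise naive, memory and helper cells, which supply the cytokines and costimulatory ligands of an immune response.

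Median signals ran from 79 to 88.1 over the 18 arrays, and 38.0 to 45.2 percent of probes were detected on an array. The mean signal was 135 to 156 on tumour Treg arrays and 117 to 143 on tumour Tconv arrays. Levels below are background-corrected, normalised log2 intensities, in which the dimmest detected probes lie near 4.20. Differences are tumour Treg minus tumour Tconv on that scale, ± SE (n = 3 arrays each). The p-values come from a limma fit and are adjusted by Benjamini-Hochberg over all named probes tested, with a threshold of 0.05. The sorted identity was read first from Foxp3. On the probe that separates the sorted cells, Foxp3 measured 9.30, 9.32 and 9.12 in tumour Treg and 4.16, 4.36 and 4.17 in tumour Tconv. That difference of 5.01 ± 0.12 had the smallest adjusted p of all probes, 2.78e-12. On this probe 1 of 3 Tconv arrays detected Foxp3, so the size of the difference rests in part on values at the detection limit. The other 3 Foxp3 probes that met the detection filter differed by -0.41 ± 0.24, -0.02 ± 0.13 and -0.02 ± 0.28, none past the threshold. The probe at -0.02 ± 0.13 was not detected on any tumour Treg or tumour Tconv array, so its value is no measure of Foxp3 there. The probes at -0.41 ± 0.24 and -0.02 ± 0.28 averaged 4.94 and 6.86 in tumour Treg. In tumour CD8 cells they averaged 5.21 and 6.44, so neither followed the sort. What these probes bind was not tested. None of the 9 sorting genes measured on their brightest probe passed, among them Il2ra, which encodes the CD25 used to sort Treg. Foxp3 is counted there too, since its brightest probe is the one at -0.02 ± 0.28 and not the one that separates the sorted cells. Cd4 measured 8.15, 8.76 and 8.55 in tumour Treg and 8.71, 8.78 and 9.01 in tumour Tconv, with ranges that overlap. Cd8b1 measured 6.68, 6.82 and 6.22 in tumour Treg, 5.35, 7.25 and 5.65 in tumour Tconv and 10.97 on average in tumour CD8 cells.

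Il1r2, Itgae, Klrg1, Ebi3, Dusp4, Ikzf2, Il10 and Tnfrsf9 were among the genes that rose in tumour Treg, and Gzmk, Igfbp4 and Bach2 among those that fell. A total of 533 probes passed the test, 2.38 percent of those tested, with 367 higher (1.64 percent) and 166 lower (0.741 percent). Counted by brightest probe, 385 genes passed (2.64 percent), 268 higher (1.84 percent) and 117 lower (0.802 percent). All 385 moved 1 way on each of the 3 BeadChips, which the call itself, made on the same arrays, largely brings about. The median difference was 1.22 among the higher genes and -1.38 among the lower ones, and 54 and 18 of them passed 2 in size. All 268 higher genes and 116 of the 117 lower genes had groups that did not overlap, an arrangement found in 9.67 percent and 8.06 percent of all genes in the same directions. The call largely brings this about as well, so the lack of overlap in a gene that passed is no separate support. With each array scaled to its median in place of quantile normalization, 517 genes passed, 80.5 percent of them higher, against 69.6 percent here. Without the first Tconv array, 254 genes passed.

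**Figure D1:**
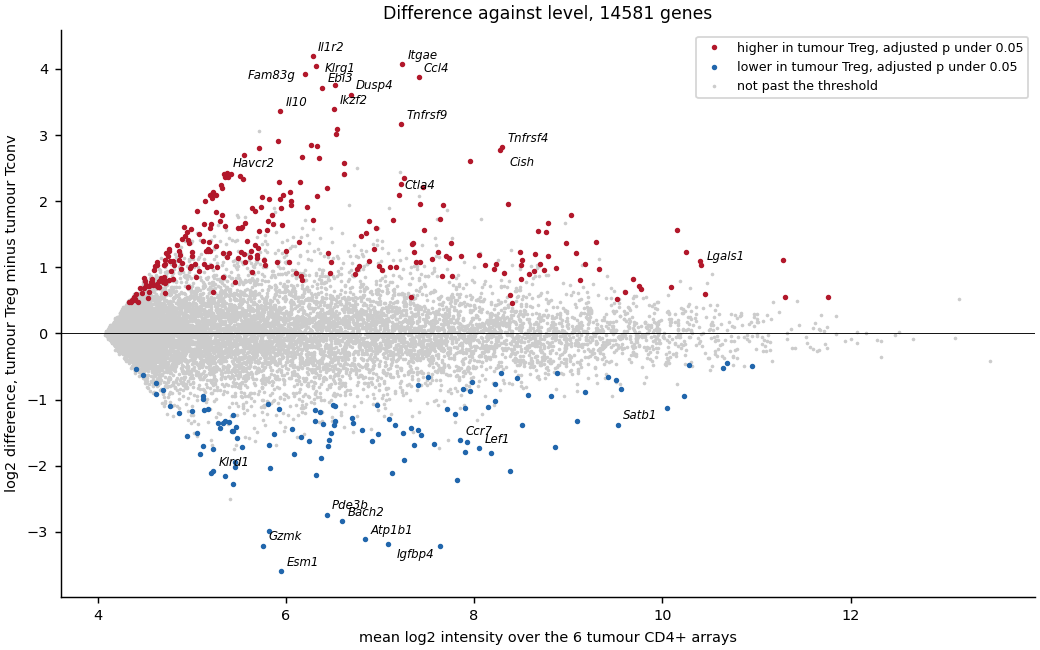
Difference between tumour Treg and tumour Tconv (vertical, log2 intensity) against the mean level of the 6 arrays (horizontal, log2 intensity), 1 point for each of 14581 genes. The 268 genes past the threshold that were higher in tumour Treg are red, the 117 that were lower are blue and the others are grey.

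Among the largest rises were surface molecules and secreted proteins. Il1r2, the decoy receptor that binds interleukin 1 without passing on a signal, measured 9.52, 7.73 and 7.90 in tumour Treg and 4.23, 4.18 and 4.15 in tumour Tconv, where no array detected it. Where no array of 1 group detected a gene, the difference is given as a bound, the mean of the brighter group over the higher of the dimmest detected signal and the gene's own signal in the other. Il1r2 was at least 17.7-fold higher in tumour Treg (adjusted p = 4.14e-05), and the first Treg array was the brightest. A gene detected on only some arrays of the dimmer group has no bound, and its difference rests in part on values at the detection limit. Among the genes described as higher, 1 of 3 Tconv arrays detected Klrg1, Fam83g, Csrp2, Plxnd1, Rgs16 and Ccl3, and 2 of 3 detected Ebi3, Gm4956, Socs2, Pparg, Tox and Ccr2. Among those described as lower, 1 of 3 Treg arrays detected Tmie, Tgfbr3, Kcnk5 and Cd40lg. Klrg1, an inhibitory receptor of differentiated T cells, measured 7.84, 8.93 and 8.24 in tumour Treg and 4.65, 4.08 and 4.16 in tumour Tconv, a difference of 4.04 ± 0.36 (adjusted p = 1.84e-05). Itgae, the integrin chain CD103 that binds E-cadherin of epithelia, measured 9.62, 9.37 and 8.82 in tumour Treg and 4.40, 6.81 and 4.39 in tumour Tconv, a difference of 4.07 ± 0.59 (adjusted p = 0.00104). The second Tconv array stood more than 2 above the other two for Itgae and still lay below every Treg array. Itgae had several detected probes, of which 3 dimmer ones also passed, at 4.28, 2.15 and 1.70, and a pair, at 0.62 and 0.30, did not.

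The remaining large rises reached further functions. Ccl4, an inflammatory chemokine, measured 9.89, 8.95 and 9.20 in tumour Treg and 5.88, 5.92 and 4.62 in tumour Tconv (3.88 ± 0.56, adjusted p = 0.001). Its mean in tumour CD8 cells was 9.71, and tumour Treg did not differ from these past the threshold (-0.36). Fam83g measured 9.06, 7.56 and 7.90 in tumour Treg and 4.11, 4.10 and 4.51 in tumour Tconv (3.93 ± 0.35, adjusted p = 1.76e-05). Gm4956 differed by 3.75 ± 0.44, and Myo1e, a myosin of the cell cortex, by 3.10 ± 0.29. Csrp2, a LIM domain protein, measured 8.04, 8.02 and 8.07 in tumour Treg and 6.70, 4.13 and 4.27 in tumour Tconv, so that 1 Tconv array stood apart without overlapping. Plxnd1, a receptor for semaphorins, rose by 2.90 ± 0.56 and Sdc4, a heparan sulfate proteoglycan of the cell surface, by 2.85 ± 0.22. Srxn1, the sulfiredoxin that restores oxidised peroxiredoxins, was not detected in tumour Tconv and was at least 6.27-fold higher in tumour Treg (adjusted p = 4.39e-05).

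**Figure D2:**
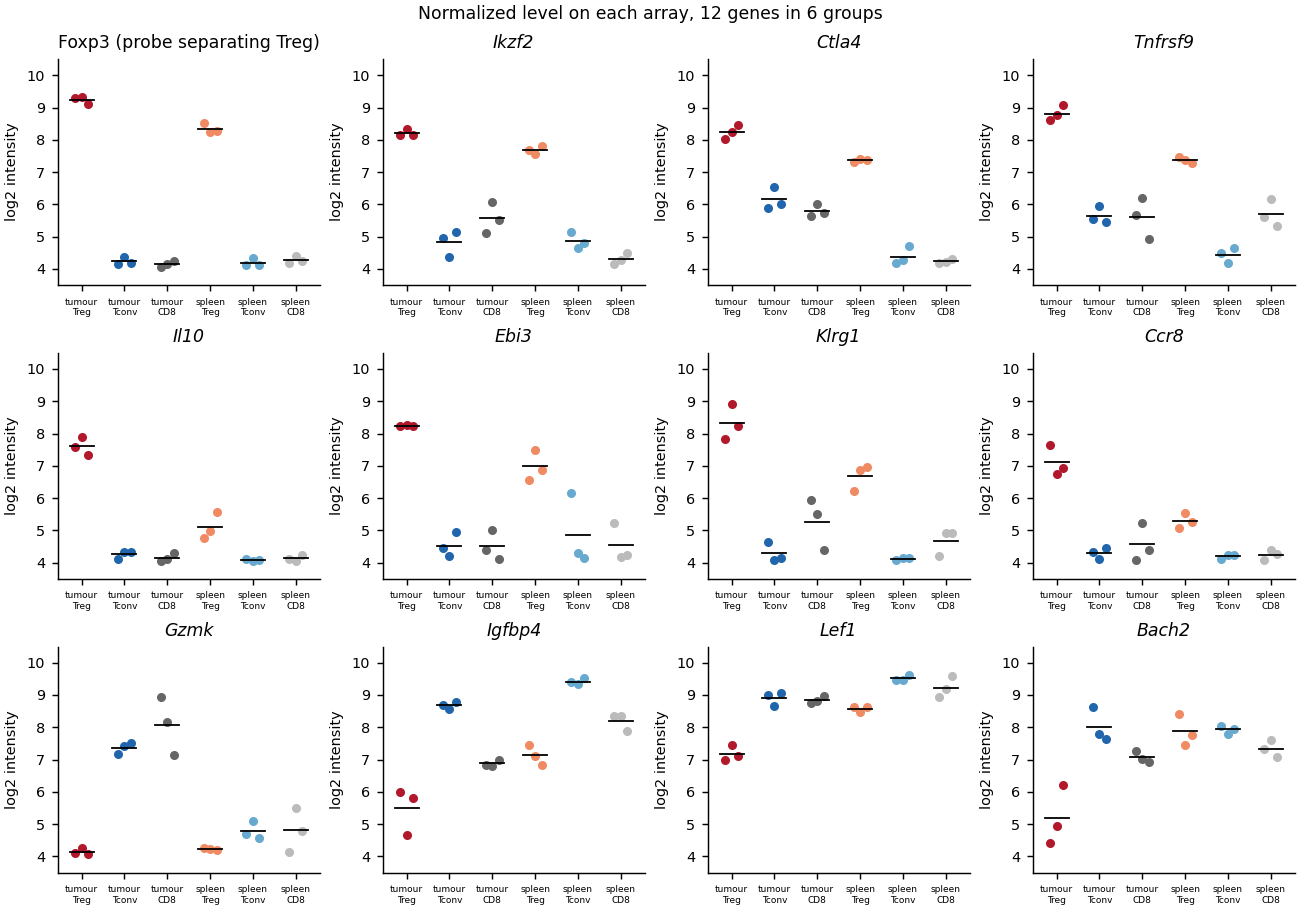
Level of 12 genes (log2 intensity) on each array of tumour Treg, tumour Tconv, tumour CD8 cells, spleen Treg, spleen Tconv and spleen CD8 cells, with 1 point for each array and a black bar at the mean of 3. Foxp3 is shown on the probe that separates the sorted cells, and for all 12 genes the tumour Treg arrays lie entirely above or entirely below the tumour Tconv arrays.

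Of 17 transcription factors of the Treg lineage, each on its brightest probe, 6 rose and 0 fell, and their median difference was 0.60, against -0.00 over all genes. Foxp3 is counted among the 11 that did not pass, because its separating probe is not its brightest. Over all genes 1.84 percent rose and 0.802 percent fell, the shares to set beside this list and the later ones. Without the first Tconv array 3 of them rose, and 2 did when all arrays of the first or of the third replicate number were left out. Ikzf2, the lymphoid factor Helios, measured 8.14, 8.34 and 8.15 in tumour Treg and 4.95, 4.38 and 5.14 in tumour Tconv (3.39 ± 0.23, adjusted p = 2.44e-06). Prdm1, the factor Blimp-1 of effector lymphocytes, measured 7.66, 7.74 and 7.21 in tumour Treg and 5.88, 5.20 and 4.95 in tumour Tconv (2.20 ± 0.30, adjusted p = 0.000689). Neither gene's groups overlapped. Maf rose by 1.23 ± 0.21, Bhlhe40 by 1.17 ± 0.25, Irf4 by 1.15 ± 0.28 and Pparg, known in mice for Treg of adipose tissue, by 1.05 ± 0.21. Irf4 missed the threshold with BeadChip as a block (adjusted p = 0.0688, against 0.0446 without it). Batf, which acts together with Irf4 at composite sites on DNA, differed by 0.60 ± 0.24 and Gata3 by 0.73 ± 0.26, neither past the threshold. Ikzf1, the factor Ikaros, did not pass on its brightest probe but was lower on 3 dimmer ones, by -1.14, -1.30 and -1.04.

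Of 20 receptors, ligands and signalling proteins of the TNF receptor family, 6 rose and 3 fell. With no background correction, with an offset of 50, in the authors' value table or with no filter on dim probes, 6 rose and 1 fell. The count of falls was also 1 when the second or the third Treg or Tconv array was left out. With the 6 arrays of the comparison alone 3 rose and 1 fell. Without the second replicate number's arrays 4 rose and 0 fell, and without the third's 2 rose and 0 fell. Tnfrsf4 (OX40) measured 9.79, 9.65 and 9.68 in tumour Treg and 6.94, 6.87 and 6.86 in tumour Tconv (2.82 ± 0.27, adjusted p = 2.83e-05). Tnfrsf9 (CD137) measured 8.60, 8.76 and 9.06 in tumour Treg and 5.54, 5.97 and 5.44 in tumour Tconv (3.16 ± 0.28, adjusted p = 1.76e-05). Both receptors sustain T cells after activation, and for both every Treg array lay above every Tconv array. Tnfrsf1b, the TNF receptor through which membrane-bound TNF expands Treg, rose by 2.36 ± 0.35, and Tnfrsf18 (GITR) by 1.36 ± 0.21. Cd27 measured 10.70, 10.99 and 11.14 in tumour Treg and 9.64, 9.77 and 10.15 in tumour Tconv, a difference of 1.09 ± 0.17. Tnfrsf8 (CD30) was at least 1.92-fold higher, since no Tconv array detected it. The 3 that fell are ligands. Fasl, which triggers death of cells carrying Fas, measured 4.82, 4.57 and 4.37 in tumour Treg and 5.82, 6.60 and 5.63 in tumour Tconv (-1.43 ± 0.26, adjusted p = 0.00594). Tnfsf8, the ligand of CD30, fell by 1.36 ± 0.31 and passed in 7 of 20 alternative analyses. Cd40lg, the signal that helper cells give to B cells and dendritic cells, differed by -0.75 ± 0.19 (adjusted p = 0.0479) and passed in 6 of 20.

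Of 20 inhibitory and costimulatory receptors and ligands of other families, 4 rose and 1 fell. The counts were 6 and 0 with median scaling, 4 and 0 without the second Tconv array and 3 and 0 with the 6 arrays of the comparison alone. Ctla4, which strips the ligands of Cd28 from antigen-presenting cells, measured 8.03, 8.25 and 8.47 in tumour Treg and 5.90, 6.54 and 6.02 in tumour Tconv (2.10 ± 0.18, adjusted p = 1.59e-05). Havcr2, the receptor Tim-3, measured 6.94, 6.47 and 6.37 in tumour Treg and 4.19, 4.21 and 4.09 in tumour Tconv. No Tconv array detected Havcr2, and it was at least 5.13-fold higher in tumour Treg (adjusted p = 1.5e-05). Lag3, a receptor for MHC class II, was not detected in tumour Tconv either and was at least 3.38-fold higher (adjusted p = 0.00452), with 6.97 on the first Treg array and 5.48 and 5.52 on the others. Klrg1, given above, is the remaining one that rose. Cd96, a receptor for nectin-family ligands, fell by 1.08 ± 0.21 and missed the threshold with median scaling (adjusted p = 0.08). Icos differed by 0.65 ± 0.18 (adjusted p = 0.0783) and Cd274, the ligand PD-L1, by 1.46 ± 0.38 (adjusted p = 0.0616), and neither passed.

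Many genes for suppressive mediators were higher in tumour Treg. Among 16 of them 9 rose and 0 fell, and 5 rose when all arrays of any 1 replicate number were left out. Their median difference was 0.87, and 11 had Treg arrays entirely above Tconv arrays, as did 9.67 percent of all genes. Il10, the anti-inflammatory cytokine, measured 7.60, 7.91 and 7.35 in tumour Treg and 4.11, 4.33 and 4.33 in tumour Tconv (3.36 ± 0.18, adjusted p = 1.41e-07), and 1 of 3 Tconv arrays detected it. Before any correction its probe read 337, 346 and 313 intensity units in tumour Treg and 79.4, 80.4 and 88.9 in tumour Tconv, the Tconv values lying at the level of the array background. Ebi3, the beta chain of the suppressive cytokine interleukin 35, measured 8.24, 8.27 and 8.22 in tumour Treg and 4.45, 4.20 and 4.94 in tumour Tconv (3.71 ± 0.45, adjusted p = 0.000229). Its usual partner chain Il12a was not detected on any array of either group. Fgl2, a secreted fibrinogen-like protein, measured 7.54, 7.78 and 7.95 in tumour Treg and 5.21, 4.49 and 5.06 in tumour Tconv (2.84 ± 0.26, adjusted p = 2.5e-05). None of these 3 genes had overlapping groups. Cd83 was at least 4.98-fold higher (adjusted p = 0.000768), Itgb8, an integrin chain that releases active TGF-beta, at least 2.22-fold (adjusted p = 0.000589), and its partner Itgav rose by 1.25 ± 0.23. Lgals1, a galectin, rose by 1.03 ± 0.21 at high level in both groups, with 11.20, 11.00 and 10.61 in tumour Treg and 10.21, 9.92 and 9.57 in tumour Tconv. Entpd1, the ectonucleotidase CD39, was near the detection limit in tumour Treg at 4.51, 4.63 and 4.63, and at least 1.28-fold higher there (adjusted p = 0.0204, or 0.203 with median scaling). Tgfb1 differed by 0.71 ± 0.31 and did not pass.

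Receptors for cytokines moved in both directions, 3 of 22 higher and 2 lower with a median of -0.05. The count of lower ones was 1 without any single array of the 6, and 1 was higher when all arrays of any 1 replicate number were left out. Besides Il1r2, Il10ra rose by 1.19 ± 0.22 and Il2rb, the signalling chain shared by the interleukin 2 and interleukin 15 receptors, by 1.08 ± 0.20. Tgfbr2, the receptor that starts TGF-beta signalling, fell by 1.12 ± 0.18, with 7.34, 7.91 and 7.52 in tumour Treg and 8.69, 8.60 and 8.83 in tumour Tconv, and missed the threshold with median scaling (adjusted p = 0.0793). Il6ra differed by -0.68 ± 0.16 (adjusted p = 0.0361) and missed it with the BeadChip block (0.0592). Of 17 genes of cytokine signalling and survival, 2 rose and 2 fell, and 1 fell without any single array other than the third Treg array. When all arrays of any 1 replicate number were left out, 1 rose. Cish, a feedback inhibitor that STAT5 induces, measured 10.02, 9.53 and 9.46 in tumour Treg and 6.81, 6.74 and 7.11 in tumour Tconv (2.78 ± 0.40, adjusted p = 0.00101). Socs2, of the same inhibitor family, rose by 1.60 ± 0.24. Bcl2, which protects from apoptosis, measured 7.02, 5.69 and 6.75 in tumour Treg and 7.75, 8.35 and 7.90 in tumour Tconv (-1.51 ± 0.27, adjusted p = 0.00586), with the second Treg array lowest. Bcl2l11, the death-promoting factor Bim, fell as well, by 0.65 ± 0.16, and missed the threshold with median scaling (adjusted p = 0.323).

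Of 25 immediate and early targets of the T cell receptor, each on its brightest probe, 5 rose and 0 fell, and the median difference was 0.52. Without the first Treg or the first Tconv array 3 rose, and 2 rose without the second or the third replicate number's arrays. Dusp4, a phosphatase that switches off MAP kinases, measured 8.50, 8.37 and 8.61 in tumour Treg and 4.67, 4.82 and 5.16 in tumour Tconv (3.61 ± 0.31, adjusted p = 1.36e-05). Egr3, a zinc finger factor induced by the receptor, measured 8.48, 7.32 and 7.23 in tumour Treg and 4.41, 5.38 and 5.28 in tumour Tconv (2.65 ± 0.37, adjusted p = 0.000689), though its dimmer probe differed by 0.09. Dusp1 rose by 1.38 ± 0.23, Egr2 by 1.22 ± 0.26 and Jund, an AP-1 subunit, by 1.02 ± 0.24. Jund missed the threshold with the BeadChip block (adjusted p = 0.0528). Nr4a1 lay near the detection limit in both groups and differed by 0.17 ± 0.12. Of 18 components of the receptor's own signalling chain, 0 rose and 2 fell (1 without any single array other than the third Treg array), Themis by 1.48 ± 0.23 and the phosphatase Ptpn22 by 0.66 ± 0.16, which missed the threshold with the block (adjusted p = 0.0605).

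Promoter sequence was looked up for the genes that passed, to show the sequence around the start sites behind some of the largest rises. RefSeq promoters of build GRCm38.p6, 250 bases before to 50 after a start site, were at hand for 190 of the 268 higher genes, 92 of the 117 lower genes and 10613 of all genes. They were searched on both strands for the letters TGANTCA of AP-1, TGTTTAC of forkhead factors such as Foxp3, TGTGGT of Runx factors and, for NF-kappaB, GGGA, any base, TT, any base and CC. The AP-1 letters were in 7.34 percent of promoters of higher genes, 3.08 percent of those of lower genes and 5.95 percent of all. The forkhead letters were in 1.54, 3.08 and 2.78 percent of the same sets, those of Runx in 13.5, 12.3 and 13.2 percent, and those of NF-kappaB in 3.86, 2.31 and 1.24 percent. A match is a description of the letters and not a bound site. The 5 promoters below were chosen after their genes' values were seen, since each holds the AP-1 letters and belongs to a gene with a large rise. Each is given 5′ to 3′ on the strand of its gene, with every match to 1 of the 4 letter patterns in capitals. No matches to different patterns overlap in them. Fgl2 lies at chr5:21372423-21372722 on the plus strand, Havcr2 at chr11:46454681-46454980 on the plus strand, Prdm1 at chr10:44458699-44458998 on the minus strand, Srxn1 at chr2:152105274-152105573 on the plus strand and Tnfrsf9 at chr4:150927749-150928048 on the plus strand.
Fgl2: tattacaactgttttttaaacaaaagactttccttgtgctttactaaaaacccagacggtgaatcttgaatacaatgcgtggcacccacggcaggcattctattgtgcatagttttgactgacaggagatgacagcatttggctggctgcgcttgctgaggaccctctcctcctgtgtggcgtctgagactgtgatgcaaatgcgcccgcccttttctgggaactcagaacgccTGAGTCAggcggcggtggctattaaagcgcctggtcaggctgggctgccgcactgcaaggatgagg
Havcr2: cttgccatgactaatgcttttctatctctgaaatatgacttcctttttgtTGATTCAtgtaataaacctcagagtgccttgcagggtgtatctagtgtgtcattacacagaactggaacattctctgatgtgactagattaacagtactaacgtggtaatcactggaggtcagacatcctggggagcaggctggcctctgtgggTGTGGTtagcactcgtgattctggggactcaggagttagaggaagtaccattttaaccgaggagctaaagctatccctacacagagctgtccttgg
Prdm1: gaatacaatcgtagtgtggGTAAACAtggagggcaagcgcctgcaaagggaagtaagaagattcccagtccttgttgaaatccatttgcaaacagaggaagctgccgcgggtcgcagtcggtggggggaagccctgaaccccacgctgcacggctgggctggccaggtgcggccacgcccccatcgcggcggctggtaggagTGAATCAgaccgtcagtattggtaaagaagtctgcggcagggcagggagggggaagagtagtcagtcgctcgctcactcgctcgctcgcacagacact
Srxn1: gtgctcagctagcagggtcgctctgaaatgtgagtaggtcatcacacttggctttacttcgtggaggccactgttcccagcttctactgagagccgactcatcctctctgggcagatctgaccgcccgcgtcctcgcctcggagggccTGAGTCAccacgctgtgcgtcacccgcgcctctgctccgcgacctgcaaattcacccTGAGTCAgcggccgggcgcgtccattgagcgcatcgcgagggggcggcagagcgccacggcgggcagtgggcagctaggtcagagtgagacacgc
Tnfrsf9: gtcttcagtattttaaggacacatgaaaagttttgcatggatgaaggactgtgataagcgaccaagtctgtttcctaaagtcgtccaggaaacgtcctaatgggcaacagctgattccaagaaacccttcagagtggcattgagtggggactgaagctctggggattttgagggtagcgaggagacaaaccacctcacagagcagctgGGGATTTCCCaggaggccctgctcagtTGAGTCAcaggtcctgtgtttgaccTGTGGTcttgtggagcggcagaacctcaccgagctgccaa
Srxn1 holds the AP-1 letters at 2 places, and Havcr2 and Tnfrsf9 hold those of Runx as well. Prdm1 alone of the 5 holds the forkhead letters, on the opposite strand, and Tnfrsf9 alone those of NF-kappaB. A further Tnfrsf9 promoter, at another start site, holds none of the 4 patterns.

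Receptors and other genes of positioning in tissue were mostly higher where they differed, 5 of 18 higher and 2 lower with a median of 0.53. Without the second or the third Treg array, or without the third Tconv array, 3 were higher. With the 6 arrays of the comparison alone, or without the third replicate number's arrays, 1 was higher. Ccr8, a chemokine receptor of Treg in barrier tissue and tumours, measured 7.64, 6.74 and 6.95 in tumour Treg and 4.34, 4.12 and 4.46 in tumour Tconv (2.80 ± 0.26, adjusted p = 2.5e-05), and 1 Tconv array of 3 detected it. Ccr2 rose by 1.25 ± 0.22, Ccr6 by 1.24 ± 0.29 and Ccr4 by 1.18 ± 0.26, and with Itgae they make up the 5. Cxcr6, the receptor of an epithelial and dendritic cell chemokine, measured 6.45, 6.70 and 6.85 in tumour Treg and 8.39, 8.42 and 7.80 in tumour Tconv (-1.53 ± 0.25, adjusted p = 0.00272). The integrin chain Itgb1 measured 8.63, 8.68 and 8.91 in tumour Treg and 9.58, 9.61 and 9.69 in tumour Tconv (-0.89 ± 0.13, adjusted p = 0.00124, or 0.0937 with median scaling). The Treg signature, 20 genes of surface and intracellular proteins known to mark these cells in lymphoid organs, had 10 higher and 0 lower with a median of 1.49. It had 2 to 5 higher when all arrays of 1 replicate number were left out. Besides Itgae, Sdc4, Tnfrsf1b and Socs2, these were Rgs16 (2.41 ± 0.38), Cd81 (2.26 ± 0.50), Swap70 (2.15 ± 0.45), Capg (1.95 ± 0.37), Ndrg1 (1.72 ± 0.42) and Nrp1 (1.04 ± 0.18). Ndrg1 missed the threshold with the BeadChip block (adjusted p = 0.0642). Gpr83 (0.49 ± 0.50) and Izumo1r, the folate receptor 4 of Treg (0.65 ± 0.17), did not pass.

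**Figure D3:**
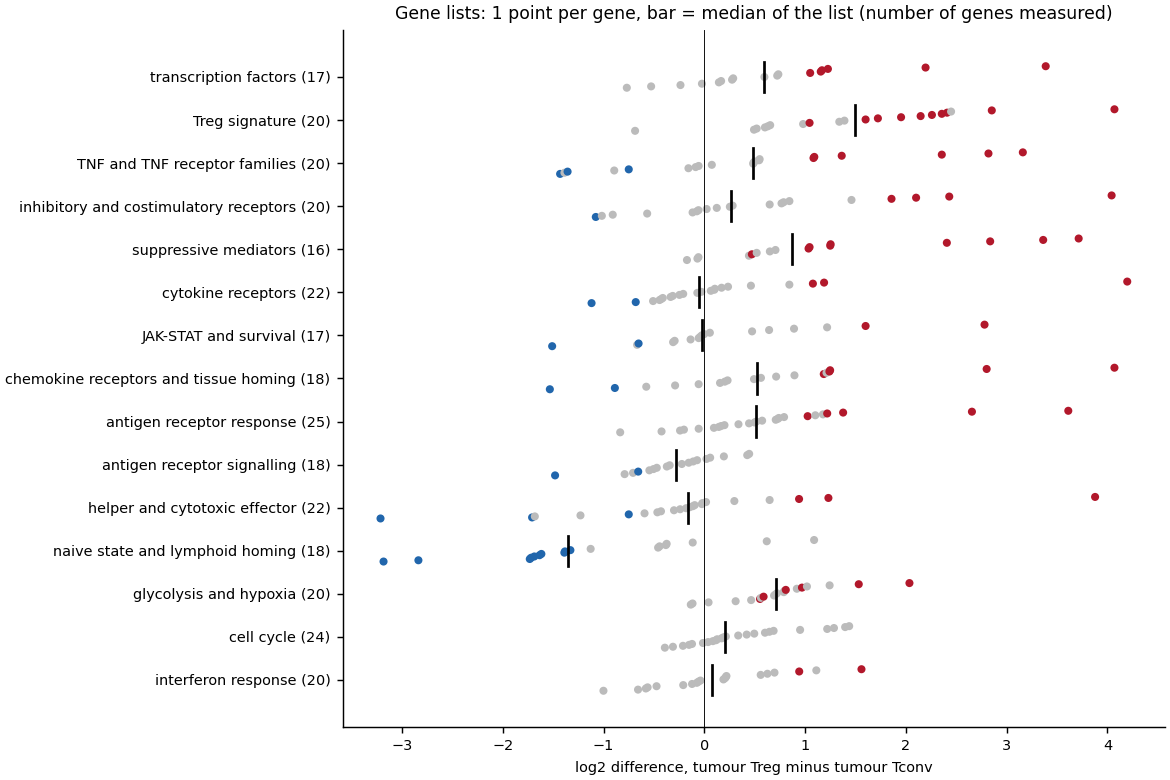
Difference between tumour Treg and tumour Tconv (log2 intensity) for the measured genes of 15 programmes, 1 point for each gene. Red points passed the test and were higher in tumour Treg, blue points passed and were lower, and grey points did not pass. The black bar is the median, which runs from -1.36 for naive and lymphoid homing genes to 1.49 for the Treg signature.

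Many genes of naive and lymphoid-homing T cells were lower in tumour Treg. Among 18 of them 0 rose and 10 fell, and 5 fell without the second replicate number's arrays and 6 without the third's. Their median difference was -1.36, and 12 had Treg arrays entirely below Tconv arrays, as did 8.06 percent of all genes. Igfbp4, a binding protein for insulin-like growth factors that marks naive CD4+ cells, measured 6.01, 4.66 and 5.82 in tumour Treg and 8.69, 8.58 and 8.77 in tumour Tconv (-3.18 ± 0.27, adjusted p = 1.36e-05). Bach2, a repressor that holds T cells back from effector fates, measured 4.40, 4.93 and 6.21 in tumour Treg and 8.62, 7.80 and 7.63 in tumour Tconv (-2.84 ± 0.37, adjusted p = 0.000474). Lef1, an HMG-box factor of naive T cells, measured 7.00, 7.46 and 7.09 in tumour Treg and 9.01, 8.67 and 9.07 in tumour Tconv (-1.73 ± 0.17, adjusted p = 4.07e-05). In these 3 genes the groups did not overlap. Ccr7, which guides T cells into lymph nodes, fell by 1.62 ± 0.21, Klf2, which maintains exit from them, by 1.39 ± 0.29 and Satb1, a chromatin organiser, by 1.38 ± 0.20. Klf3 fell by 1.63 ± 0.25, Dapl1 by 1.72 ± 0.32 (adjusted p = 0.00758), Actn1 by 1.69 ± 0.31 and Dtx1 by 1.33 ± 0.31. Dtx1 was the 1 gene past the threshold with overlapping groups, at 5.16, 5.42 and 6.36 in tumour Treg and 7.18, 6.32 and 7.43 in tumour Tconv. Klf2 (adjusted p = 0.0938) and Dtx1 (adjusted p = 0.104) missed the threshold with median scaling. Dapl1 missed it with no background correction (adjusted p = 0.108), with an offset of 50 (0.0513) and in the authors' value table (0.114).

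Gzmk and Klrd1 were among the other genes that fell. Gzmk, a granule protease, measured 4.12, 4.27 and 4.07 in tumour Treg, where no array detected it, and 7.16, 7.41 and 7.52 in tumour Tconv. The Treg level was lower by at least 8.72-fold (adjusted p = 0.000147). Klrd1, the chain CD94 of receptors on cytotoxic cells, measured 4.17, 4.23 and 4.16 in tumour Treg and 6.52, 6.02 and 6.29 in tumour Tconv, at least 4.14-fold lower (adjusted p = 0.000196). Neither gene's groups overlapped. Of 22 helper and effector genes, 3 rose and 3 fell, around a median difference of -0.16. Without the first or the second Treg array, or without the second Tconv array, 1 rose and 2 fell. Without the third replicate number's arrays 0 rose and 3 fell. Those higher were Ccl4, Ccl3 (0.94 ± 0.20) and Tox (1.23 ± 0.29), a factor of chronically stimulated T cells, and those lower were Gzmk, Ly6c1 (-1.71 ± 0.26) and Cd40lg. Ifng measured 5.54, 5.51 and 4.80 in tumour Treg and 6.53, 6.63 and 6.37 in tumour Tconv, without overlap, a difference of -1.23 ± 0.34 that did not pass (adjusted p = 0.0788). Il2 differed by -1.68 ± 0.48 and did not pass either (adjusted p = 0.0967). Il17a, Il4, Il21, Crtam and Eomes were not detected on any tumour Treg array.

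The largest falls also held genes outside these programmes. Esm1, the secreted proteoglycan endocan, measured 4.16, 4.15 and 4.15 in tumour Treg, where no array detected it, and 6.97, 8.71 and 7.57 in tumour Tconv, so that tumour Treg lay at least 11.5-fold lower (adjusted p = 0.00156). Hs3st3b1, a sulfotransferase that modifies heparan sulfate, measured 4.59, 6.94 and 6.56 in tumour Treg and 9.20, 9.24 and 9.32 in tumour Tconv (-3.22 ± 0.42, adjusted p = 0.000432), while its dimmer probe differed by -0.41. Neither gene's groups overlapped, and the first Treg array was the lowest for Hs3st3b1. Atp1b1, a subunit of the sodium pump, fell by 3.11 ± 0.25 and Pde3b, a phosphodiesterase of cyclic nucleotides, by 2.74 ± 0.32. Tmie fell by 2.99 ± 0.47, and Tgfbr3, the TGF-beta co-receptor betaglycan, by 2.16 ± 0.22. Thada fell by 2.12 ± 0.24, Nme7 by 2.22 ± 0.27, Scml4 by 2.14 ± 0.28 and Sema4a, a semaphorin, by 1.92 ± 0.26. Kcnk5, a potassium channel, fell by 2.28 ± 0.54 and Tbc1d4, a regulator of glucose transporter traffic, by 2.04 ± 0.47. Kcnk5 passed in 11 and Tbc1d4 in 7 of 20 alternative analyses.

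Several genes of glycolysis and hypoxia were higher in tumour Treg. Of 20 measured, 6 rose and 0 fell, and the median was 0.71. Treg arrays lay entirely above Tconv arrays for 15 of them, as for 9.67 percent of all genes. Slc16a3, the lactate exporter of glycolytic cells, measured 7.06, 7.10 and 6.36 in tumour Treg and 5.13, 4.45 and 4.83 in tumour Tconv (2.03 ± 0.25, adjusted p = 0.000292), though its dimmer probe differed by -0.10. Slc2a3, a glucose transporter, measured 9.42, 9.49 and 9.68 in tumour Treg and 7.95, 7.94 and 8.10 in tumour Tconv (1.53 ± 0.21, adjusted p = 0.00068). Pkm, the last enzyme of glycolysis, measured 9.52, 9.55 and 9.52 in tumour Treg and 8.68, 8.67 and 8.81 in tumour Tconv (0.81 ± 0.16, adjusted p = 0.0101). The 3 genes showed no overlap between groups. Pgk1 rose by 0.97 ± 0.21 and Gapdh by 0.59 ± 0.14, both glycolytic enzymes. Vegfa, the angiogenic growth factor, was at least 1.35-fold higher (adjusted p = 0.0372), and missed the threshold with the BeadChip block (adjusted p = 0.058). The count of higher genes ran from 4 to 10 over the other settings and from 0 to 7 when arrays were left out, with 3 without the second or the third Treg array or the second Tconv array. Of 24 cell cycle genes 0 passed in either direction (1 rose without the third Treg array), with a median of 0.20, and Mki67 differed by 1.29 ± 0.67 (adjusted p = 0.496). Of 20 interferon response genes 2 rose, Isg20 by 1.56 ± 0.29 and Igtp by 0.94 ± 0.14, and 0 fell, while 5 rose with median scaling.

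Markers of other cells were read in the same arrays, as the summed background-corrected intensity of each list. Of 19 macrophage markers 0 passed, with sums of 1275 to 2559 in tumour Treg and 1091 to 2800 in tumour Tconv. Cd14 alone of the 19 was not detected on any tumour Treg array, and all the others were detected there. Of 10 melanoma markers 0 passed, with sums of 638 to 993 in tumour Treg and 609 to 1252 in tumour Tconv. In spleen the macrophage list summed to 162 to 906 in Treg and 143 to 760 in Tconv, and the melanoma list to 67 to 125 in Treg and 46 to 105 in Tconv. Of 10 dendritic cell markers 1 passed, Zbtb46, at least 1.88-fold higher in tumour Treg, and the sums did not overlap, at 446 to 1179 in tumour Treg and 122 to 356 in tumour Tconv. Cd74, the MHC class II invariant chain, measured 9.24, 8.27 and 7.82 in tumour Treg and 6.53, 6.13 and 5.32 in tumour Tconv (2.45 ± 0.98, adjusted p = 0.295). Of the 10 markers, Flt3 and Xcr1 alone were not detected in tumour Treg, and 3 were not detected in tumour Tconv. Ebi3, Cd83, Fgl2, Cd274 and Havcr2 are also known from dendritic cells, and the part of these cells in their values was not tested. The 5 B cell markers summed to 40 to 65 in tumour Treg and 16 to 27 in tumour Tconv, without overlap, and 0 passed. Of 5 neutrophil markers 1 passed, Mmp9, described with the spleen below, and the sums overlapped. The 7 markers of NK and CD8 cells summed to 70 to 111 in tumour Treg, 132 to 215 in tumour Tconv and 2664 to 3114 in tumour CD8 cells. Klrd1 is 1 of these, and the part of admixed cells in its fall was not tested. The 6 erythroid markers ran from 11 to 1044 in tumour Treg and from 33 to 1321 in tumour Tconv, and the 5 of stroma and endothelium from 77 to 142 in tumour Treg and from 160 to 364 in tumour Tconv, with 0 passing in either.

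**Figure D4:**
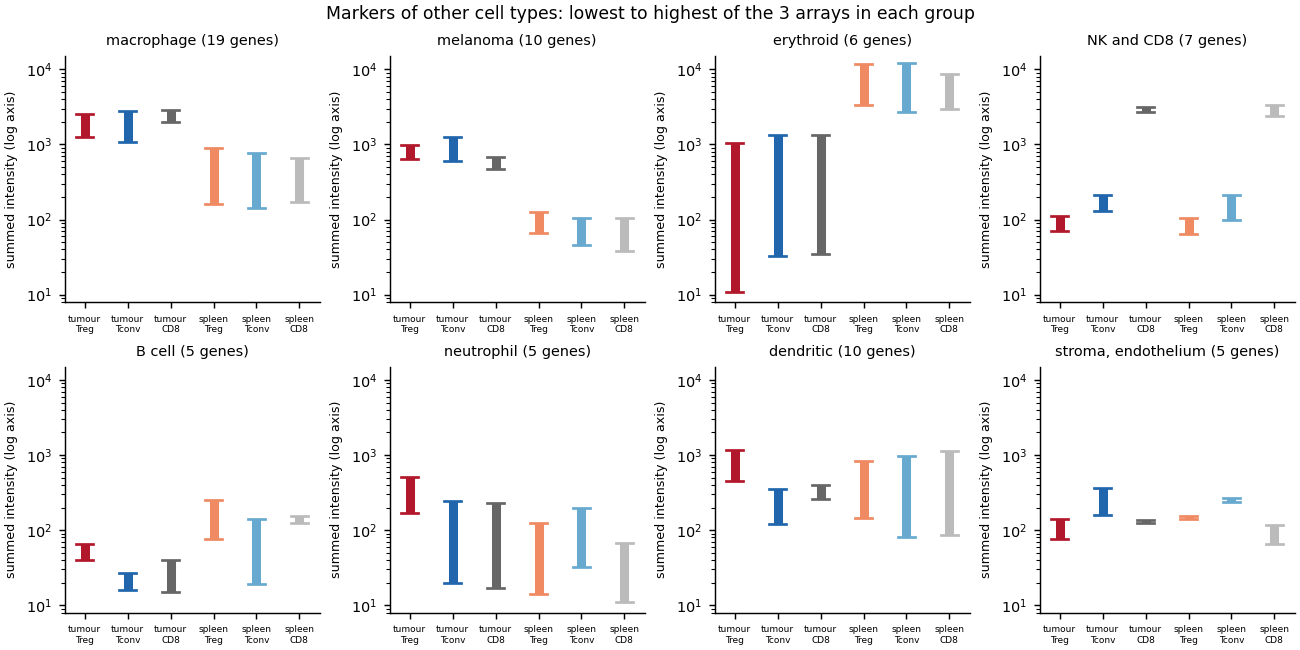
Summed background-corrected intensity (log axis) of 8 lists of markers of other cell types, drawn from the lowest to the highest of the 3 arrays of each group. Dendritic and B cell sums lie higher in tumour Treg than in tumour Tconv without overlap, NK and CD8 sums and stroma sums lie lower without overlap, and macrophage and melanoma sums overlap.

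The same contrast in spleen, between spleen Treg and spleen Tconv, shows which tumour differences are shared with lymphoid tissue of tumour-bearing mice. In spleen 220 genes passed (1.51 percent), 150 higher (1.03 percent) and 70 lower (0.48 percent). Of the genes higher in tumour Treg, 69 were also higher in spleen Treg, 25.7 percent of the tumour list and 46.0 percent of the spleen list. Of the lower genes 32 were shared, 27.4 percent and 45.7 percent of the 2 lists. Itgb1 alone passed in opposite directions. Tnfrsf9 rose by 3.16 in tumour and 2.93 in spleen, Ctla4 by 2.10 and 2.98, Tnfrsf4 by 2.82 and 3.34, Ikzf2 by 3.39 and 2.83 and Dusp4 by 3.61 and 2.39. The Treg signature had 10 of 20 genes higher in spleen too, and the naive list 6 of 18 lower. In the glycolysis list 1 of 20 rose in spleen, Slc2a3, with a median of -0.05, and the difference between the 2 tissues passed for none of its 20 genes.

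The difference between the 2 tissues was tested in the same fit as tumour contrast minus spleen contrast. It passed for 26 probes (0.116 percent), 13 in each direction, and for 19 genes (0.13 percent), while 1391 probes had an unadjusted p under 0.05. Il10, Havcr2, Mmp9, Srxn1, Fam83g and Aldoc were among the 10 genes (0.0686 percent) with a larger or more positive difference in tumour. Il10 measured 7.60, 7.91 and 7.35 in tumour Treg and 4.11, 4.33 and 4.33 in tumour Tconv, against 4.75, 4.99 and 5.56 in spleen Treg and 4.11, 4.06 and 4.08 in spleen Tconv (2.35 ± 0.26, adjusted p = 0.00145). No spleen Tconv array detected Il10, so the size of that difference rests on values at the detection limit. Spleen Treg lay between tumour Treg and both Tconv groups. Havcr2 measured 4.15, 4.84 and 4.21 in spleen Treg and 4.19, 4.23 and 4.37 in spleen Tconv, ranges that overlap, and its tissue difference was 2.29 ± 0.30 (adjusted p = 0.00331), a size that likewise rests on the undetected tumour Tconv values. Mmp9, a gelatinase of the extracellular matrix, measured 8.01, 7.57 and 6.96 in tumour Treg and 4.70, 5.25 and 4.56 in tumour Tconv, against 5.08, 4.65 and 4.35 in spleen Treg and 5.39, 4.18 and 4.92 in spleen Tconv (2.81 ± 0.45, adjusted p = 0.0202). Every tumour Treg array lay above every array of the other 3 groups for Mmp9. Of the other neutrophil markers, S100a9 measured 7.97, 7.31 and 6.11 in tumour Treg and 7.78, 5.67 and 4.43 in tumour Tconv, a difference of 1.17 ± 1.11 that did not pass (adjusted p = 0.817). S100a8 and Csf3r were each detected on 1 of 3 arrays in each tumour group and Camp on none. The summed level of the 5 markers was 169 to 504 in tumour Treg and 20 to 243 in tumour Tconv, and the part of neutrophils in the Mmp9 values was not tested. Aldoc, a glycolytic aldolase that is not on the glycolysis list, measured 6.47, 6.74 and 6.59 in tumour Treg and 4.49, 5.06 and 4.69 in tumour Tconv, and overlapped between the spleen groups (1.88 ± 0.22, adjusted p = 0.0016).

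The 9 genes (0.0617 percent) with a smaller or more negative difference in tumour included Rgs1, Nrp1, Itgb1, Tnfsf11 and Tbc1d4. Rgs1, a brake on chemokine receptor signalling, measured 9.37, 9.34 and 9.39 in tumour Treg and 8.65, 8.66 and 8.90 in tumour Tconv, against 9.78, 9.67 and 9.54 in spleen Treg and 4.88, 5.45 and 5.86 in spleen Tconv (-3.63 ± 0.43, adjusted p = 0.0016). Its level set tumour Tconv apart from spleen Tconv, while the Treg of both tissues lay close together. Nrp1, a semaphorin co-receptor of thymus-derived Treg in mice, measured 8.73, 8.72 and 8.82 in tumour Treg and 7.51, 7.69 and 7.93 in tumour Tconv, against 9.20, 9.19 and 9.22 in spleen Treg and 6.41, 6.09 and 6.09 in spleen Tconv (-1.96 ± 0.26, adjusted p = 0.00385). It differed in the same direction in both tissues, by 1.04 in tumour and 3.00 in spleen. Itgb1 measured 8.96, 8.81 and 8.66 in spleen Treg and 8.16, 8.25 and 8.26 in spleen Tconv, the reverse of its order in tumour (-1.47 ± 0.19, adjusted p = 0.00294). Tnfsf11, the cytokine RANKL, measured 4.67, 5.43 and 5.42 in tumour Treg and 5.94, 6.11 and 6.15 in tumour Tconv, against 5.94, 6.57 and 6.72 in spleen Treg and 4.73, 4.85 and 4.95 in spleen Tconv (-2.46 ± 0.36, adjusted p = 0.0102). Neither tissue's groups overlapped for Tnfsf11. Bach2 differed by -2.84 in tumour and -0.06 in spleen, and its tissue difference of -2.78 did not pass (adjusted p = 0.072). No probe passed this test when all arrays of the second or of the third replicate number were left out, and 7 passed without the first. With median scaling 26 probes passed in the positive and 10 in the negative direction. Without the second Tconv array 4 and 11 passed in these directions, and without the third Tconv array 6 and 11.

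**Figure D5:**
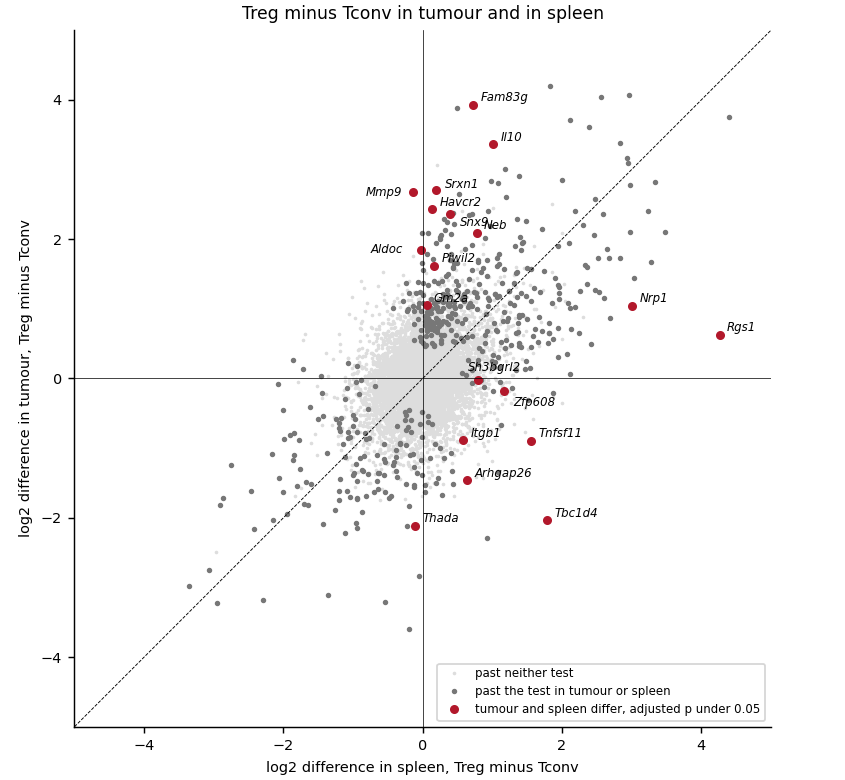
Difference between Treg and Tconv in tumour (vertical) against the same difference in spleen (horizontal), both in log2 intensity, 1 point for each gene, with a dashed line where they are equal. The 19 genes whose 2 differences differ past the threshold are red and named, among them Il10, Mmp9 and Havcr2 above the line and Rgs1, Nrp1 and Itgb1 below it.

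Set against CD8 cells sorted from tumour, tumour Treg differed in 582 genes (3.99 percent), 372 higher (2.55 percent) and 210 lower (1.44 percent), in a comparison that shares the Treg arrays. Ebi3 was higher by 3.73, Dusp4 by 3.53, Tnfrsf9 by 3.21 and Tnfrsf4 by 4.67, against 3.71, 3.61, 3.16 and 2.82 in the comparison with Tconv. Il10 was at least 10.4-fold higher than in tumour CD8 cells, where no array detected it. Ikzf2 was higher by 2.64 and Ccr8 by 2.55. Gzmk was at least 14.3-fold lower than in CD8 cells and Klrd1 at least 34.3-fold lower. Ccl4 was the exception among the 10 largest rises over Tconv, since its difference from tumour CD8 cells did not pass.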

How the data were processed

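Sorted T cells were measured on Illumina BeadChip arrays, 18 in all, and groups were taken from the labels. The table used gives a mean intensity over the beads of each probe, deposited by the authors without normalization between arrays per the file headers, with a detection p-value for each probe, also per the file headers. The authors' value table, used as an alternative, holds intensity values taken here as normalized between arrays. Their medians ran from 83.5 to 85.9, against 79 to 88.1 for the signals used. Within an array, their ranks nearly matched those of the signals (Spearman correlation of at least 0.999). For the software behind the values, no name is given in the sources used here. Starting from these signals, neqc of limma 3.58.1 (R 4.3.3) subtracted background, added an offset of 16, normalized by quantiles and took log2, which lowers folds of dim genes. Of named probes, the 22409 with a detection p-value under 0.05 on 3 or more of 18 arrays were kept. Of the probes, 35784 had 1 gene name, 0 several and 10453 none. All arrays entered 1 linear model (lmFit, eBayes) with 6 group means and 12 residual degrees of freedom, and p-values were adjusted by Benjamini-Hochberg over these probes with a threshold of 0.05. A gene is given by its brightest probe.

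Each replicate number was on 1 BeadChip, which also held the other groups, always at the same position: an effect of position and one of group cannot be told apart. Model residuals of same-numbered arrays had a mean correlation of 0.0435 over 45 pairs, with 5 above 0.1, and number entered the model only as an alternative, the BeadChip block. The labels do not tell whether each replicate is a separate set of mice, so a p-value speaks only of the spread among these arrays, which may be technical. Across genes, which are no independent replicates, tumour Treg arrays correlated with each other by 0.933 to 0.968 and tumour Tconv arrays by 0.932 to 0.955.

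On simulated data for the tumour comparison with 22409 probes, the test called 46 of 50 probes given a log2 rise of 2, 43 of 50 given a fall of that size, 28 of 50 given a rise of 1, 17 of 50 given a fall of 1, and 11 of 22209 without a change. The number of arrays limits the precision. The gene lists, the comparisons and the 20 alternatives were chosen with earlier results of these data known. Genes named are the largest 20 rises and falls, list members past the threshold or of general interest, and the genes whose difference differed between tissues. Genes of a list without a named or detected probe were not analysed here.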

Additional observations from a re-analysis of the deposited data

Results flagged for a closer look

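The difference between Treg and Tconv was larger or more positive in tumour than in spleen for 10 genes, each past the threshold in the test of the difference itself, within the same limma fit. The fitted tissue difference was 0.99 for Gm2a, 1.88 for Aldoc and 2.81 for Mmp9. It was 3.20 for Fam83g, 2.35 for Il10, 2.52 for Srxn1, 2.29 for Havcr2, 1.97 for Snx9, 1.45 for Piwil2 and 1.32 for Neb. No tumour Tconv array detected Srxn1, Havcr2, Snx9, Piwil2 or Neb, 1 of 3 detected Fam83g and Il10, and no spleen Tconv array detected Il10, Piwil2 or Neb, so these fitted values are no measured sizes and have no order. Fam83g measured 9.06, 7.56 and 7.90 in tumour Treg and 4.11, 4.10 and 4.51 in tumour Tconv, against 5.50, 4.13 and 5.09 in spleen Treg and 4.35, 4.13 and 4.07 in spleen Tconv. Srxn1 measured 7.31, 6.39 and 7.03 in tumour Treg and 4.30, 4.07 and 4.24 in tumour Tconv, against 4.39, 5.05 and 4.23 in spleen Treg and 4.70, 4.24 and 4.17 in spleen Tconv. For both genes the spleen groups overlapped. Snx9 (at least 5.02-fold), Neb (at least 4.2-fold) and Piwil2 (at least 2.82-fold) were higher in tumour Treg than in tumour Tconv, where no array detected them, and Gm2a, the activator protein of ganglioside breakdown, rose by 1.05. Of 19 alternative analyses, the tissue difference passed in 16 for Il10, Havcr2 and Aldoc, 15 for Srxn1 and 14 for Fam83g and Piwil2. It passed in 11 for Mmp9, in 8 for Snx9 and in only 6 for Gm2a and Neb.

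The same test gave a smaller or more negative difference in tumour for 9 genes. It was -3.82 for Tbc1d4, -3.63 for Rgs1, -2.46 for Tnfsf11, -2.10 for Arhgap26, -2.01 for Thada, -1.96 for Nrp1, -1.47 for Itgb1, -1.36 for Zfp608 and -0.82 for Sh3bgrl2. Tbc1d4 measured 4.36, 4.56 and 5.52 in tumour Treg and 7.87, 6.59 and 6.09 in tumour Tconv, against 7.53, 7.00 and 7.53 in spleen Treg and 6.27, 5.55 and 4.88 in spleen Tconv. Its groups did not overlap in either tissue, and its tissue difference passed in 10 of 19 alternatives. Rgs1 passed in 17 of 19, and on a dimmer probe it was higher in tumour Treg than in tumour Tconv by 1.12 ± 0.19. The tissue difference of Tnfsf11 passed in 17, Nrp1 in 16, Itgb1 in 15, Thada in 11 and Arhgap26 in 8 of 19. That of Zfp608 passed in 15 and that of Sh3bgrl2 in only 5 of 18. No spleen Tconv array detected Zfp608 or Sh3bgrl2, and spleen Treg exceeded it by at least 2.12-fold for Zfp608 and at least 1.62-fold for Sh3bgrl2. No tumour array of either group detected Sh3bgrl2, so their fitted tissue differences are no measured sizes either.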

How the results depend on the processing

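Of the 385 genes past the threshold, 56 passed in all 20 alternatives (43 higher, 13 lower), and 0 turned sign in any. For probes that differ between tumour Treg and tumour Tconv, 533 became 234 with the 6 arrays of the comparison alone and 804 with array weights, and ran from 161 to 473 when arrays were left out, with 350 without the first Tconv array. For genes, 385 became 170 with those 6 arrays and ran from 118 to 341 when arrays were left out, which also leaves fewer arrays. For probes that differ between the tissues, 26 became 43 with no background correction, 49 with an offset of 50, 44 with the authors' value table and 64 with array weights, and ran from 0 to 36 when arrays were left out. Leave-outs ran from 72 to 315 for the spleen comparison, against 310, and from 256 to 846 for the comparison with CD8 cells, against 823. The upper ends, 315 and 846, came from leaving out a tumour array that is not in the comparison concerned. Without replicate number 1, 2 or 3, the counts were 155, 82 and 72 in spleen and 508, 313 and 256 against CD8 cells. Without a single tumour Treg array, 619, 582 and 699 probes passed against CD8 cells. No single spleen or CD8 array was left out. The causes were not tested. Median scaling moved the median of all probes to -0.0607, against -0.0010. With replicate number (BeadChip) as a block, 539 probes and 388 genes passed in tumour, 321 probes in spleen, 25 for the tissue difference and 859 against CD8 cells, and 354 of the 385 genes kept their call. Same-numbered tumour arrays had residual correlations of -0.0155, -0.0940 and 0.115, so the numbers did not pair the samples by this measure. Among the genes named, 113 passed here, 41 of them in every alternative, 107 with the block and 103 with median scaling. Differences of 1 lie near what 3 arrays a group resolve.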

Other observations

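Several genes outside the lists passed in all 20 alternatives and are named after their values were seen. Glrx, the glutaredoxin that reduces protein disulfides, averaged 10.94 in tumour Treg and 9.37 in tumour Tconv, and its dimmer probe differed by 1.49. Odc1, the first enzyme of polyamine synthesis, averaged 11.84 in tumour Treg and 10.73 in tumour Tconv, and Idi1, an enzyme of the cholesterol pathway, 7.76 in tumour Treg and 6.16 in tumour Tconv. Nrn1, a membrane-anchored neuritin, rose by 1.90 in tumour and by 1.94 in spleen. Hip1, an adaptor of endocytosis, rose by 2.29 on 1 probe and 1.93 on another in tumour, and by 0.31 and 0.27 in spleen, where neither passed.

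A total of 5009 genes had more than 1 detected probe. The 385 genes past the threshold had 245 dimmer probes, of which 213 moved in the direction of the brightest one, 84 of them past the threshold, and 32 moved the other way, 0 of them past it. A further 58 genes passed on a dimmer probe only, 40 higher and 18 lower. These included Foxp3 itself, Hif1a, the oxygen-regulated factor, which was higher by 1.08, Traf1, an adaptor of TNF receptors, by 1.53, and Bcl2l1, the survival factor Bcl-xL, by 1.12. Il7r, the interleukin 7 receptor that Treg are known to carry little of, was lower on 2 dimmer probes, by -0.85 and -0.66, and differed by -0.44 on its brightest (adjusted p = 0.0926, limma). Itga4, an integrin chain of homing to inflamed tissue, was lower on 2 dimmer probes, by -1.51 and -0.92.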
